A study of Rattus norvegicus with 4 samples.

Results

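The circular RNAs (circRNAs) described here are those of Stk39 (ENSRNOG00000024808), the gene of the kinase SPAK, in rat sciatic nerve. They are every circRNA whose host gene symbol in the authors' files is Stk39, 11 of the 4942 circRNAs listed. Stk39 was selected on the difference in its summed circRNA reads between crushed and sham nerve, so the crush against sham levels of Stk39 and of its single circRNAs are given below as a description, without a test. The nerves came from Sprague-Dawley rats in week 6 after birth and were taken 24 h after surgery for sequencing of total RNA. In the crush group (2 libraries), a 3 mm stretch was squeezed with forceps 2 times, for 15 s each and 3 s apart. In the sham group (2 libraries), the nerve was exposed but not crushed. Both groups are whole pieces of nerve, 3 mm with 1 mm at either end, so they hold axons, Schwann cells, connective tissue, vessels and any leukocytes together, and fewer cells of a type cannot be told apart from less RNA per cell. Whether the pair of libraries in a group stems from different animals is not in the labels, so the spread between them may be technical.

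A circRNA forms when a downstream splice site is joined back to an upstream one, and it is counted by reads that cross this back-splice junction. SPAK is a serine/threonine kinase of the Ste20 family. WNK kinases, which sense chloride and osmotic stress, phosphorylate and switch on SPAK and its close relative OSR1 (Oxsr1). SPAK in turn phosphorylates cation-chloride cotransporters, turning on the sodium-potassium-chloride importer Slc12a2 and turning off the potassium-chloride exporters. The files hold junction reads of circRNAs and not the level of the linear Stk39 mRNA or of the protein.

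Junction reads totalled 8250 and 9027 in the crush libraries, against 9018 and 8726 in the sham ones. No count of 1 was listed, so a 0 can hide a single read. The authors' signal, SRPBM, was the read count times a constant for each library, 0.0725 and 0.0598 per read in crushed nerve (replicates 1 and 2), against 0.0729 and 0.0786 in sham nerve.

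All 11 Stk39 circRNAs were classed as exonic and lay on the minus strand of chromosome 3 (Rnor_6.0, coordinates as in the files). On this strand the higher coordinate is the upstream end of a circRNA and the lower one its downstream end. The 11 used 6 different upstream ends and 6 different downstream ends, and every one of the 11 shared an end with another. A single upstream end, at position 54566332, was used by 6 circRNAs, which form a nested set that starts at 1 splice site and reaches ever farther into the gene. The shortest of the 6 was chr3:54547246-54566332, with a span of 19086 bases from end to end, introns included. It had the most reads of all 11, 63 of 113, and is called the leading circRNA below. The other 5 of the nested set were chr3:54516976-54566332 (span 49.4 kb), chr3:54509941-54566332 (56.4 kb), chr3:54463198-54566332 (103.1 kb), chr3:54455979-54566332 (110 kb) and chr3:54410080-54566332 (156 kb).

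The remaining 5 circRNAs began farther downstream, each at an upstream end of its own. Their downstream ends were all sites that the nested set used too. The downstream end at 54509941 was used by 4 circRNAs, the 56.4 kb one of the nested set and those from 54554495 (44.6 kb), 54548558 (38.6 kb) and 54519757 (9.82 kb). The other pair were chr3:54455979-54510171 (54.2 kb) and chr3:54410080-54463443 (53.4 kb). In 2 places an upstream end of one circRNA lay just above a downstream end of another, 54510171 against 54509941 (230 bases between them) and 54463443 against 54463198 (245 bases). These are distances between back-splice ends as listed, and the exon borders of Rnor_6.0 were not used here.

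**Figure D1:**
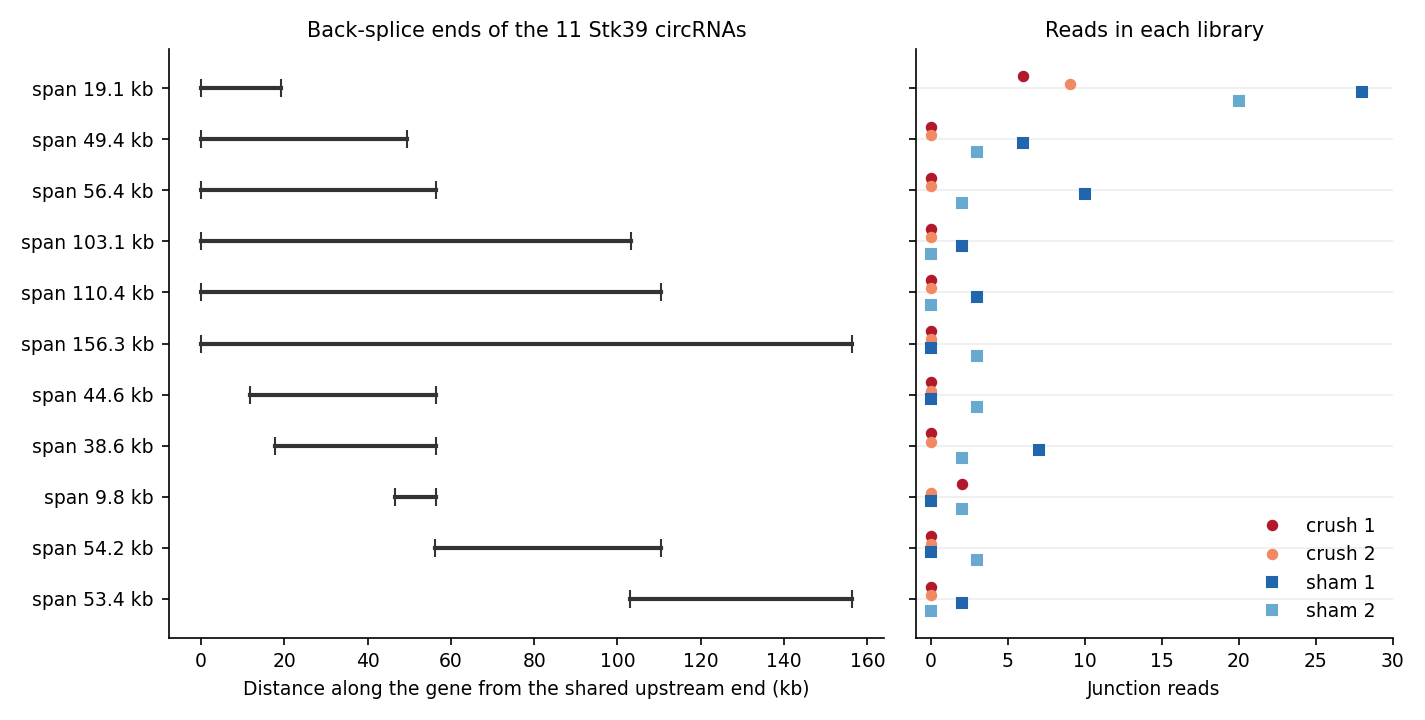
Left, each of the 11 Stk39 circRNAs as a line from its upstream to its downstream end, in kb along the gene from the upstream end that 6 of them share. Right, junction reads of the same circRNAs in each crush library (circles) and sham library (squares). The leading circRNA, at the top, had 6 and 9 reads in crushed nerve, against 28 and 20 in sham nerve, and only 1 other circRNA had any read in crushed nerve.

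The Stk39 circRNAs spanned long stretches of the genome. Their median span was 53.4 kb (range 9.82 to 156 kb), against a median of 8.81 kb over all 3731 exonic circRNAs of the files. The shortest Stk39 span was longer than 53.2% of exonic spans, and that of the leading circRNA was longer than 74.5%. Of the 38 exonic circRNAs longer than 100 kb in the files, 3 came from Stk39. These 38 had 31 host genes, and no other host had 3 or more of them. The 3 of Stk39 rest on 2 or 3 reads each, in a single sham library each. Among hosts with at least 8 circRNAs, Stag1 had a longer median span (65.6 kb), and those of Rere (51.7 kb) and Atrnl1 (51.5 kb) were close to that of Stk39. A span counts introns and does not give the length of the circular molecule.

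Summed over its circRNAs, Stk39 had 8 and 9 junction reads in crushed nerve, against 58 and 38 in sham nerve. As SRPBM this was 0.580 and 0.538 in crushed nerve, against 4.23 and 2.99 in sham nerve. The crush libraries lay close together, both far below the lower sham library, while the sham libraries differed from each other by more than the crush libraries did. The mean was 0.559 ± 0.030 SRPBM in crushed nerve, against 3.61 ± 0.87 in sham nerve (SD, n = 2 each), a ratio of 6.45 of sham to crush. Fitted with edgeR over all host genes, the log2 change was -2.26 ± 0.46 (SE, crush minus sham), or 4.79-fold lower in crushed nerve. The median log2 change of the 434 host genes fitted was 0.11, and 32 hosts had a lower value than Stk39. By junction reads Stk39 ranked 184 and 174 among 2327 host genes in the crush libraries, against 10 and 21 in the sham ones. Of all junction reads of a library it held 0.0970% and 0.0997% in crushed nerve, against 0.643% and 0.435% in sham nerve, where it was among the larger sources of circRNA reads.

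The leading circRNA, chr3:54547246-54566332, was the only Stk39 circRNA reported in all 4 libraries. It had 6 and 9 reads in crushed nerve, against 28 and 20 in sham nerve, or 0.487 ± 0.073 SRPBM in crushed nerve and 1.81 ± 0.33 in sham nerve (SD, n = 2 each). Both crush libraries lay below both sham libraries, and the ratio of sham to crush was 3.71. Its log2 change was -1.44 ± 0.46 (SE, edgeR fit over 428 circRNAs). Among all 4942 circRNAs it ranked 245 and 143 by reads in the crush libraries, against 26 and 44 in the sham ones. It was also the only Stk39 circRNA with at least 5 reads in at least 2 libraries, the requirement for the fit, so 10 of the 11 have no fitted log2 change.

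Of these 10, 3 were reported in both sham libraries and in neither crush library. That of 56.4 kb in the nested set had 0 and 0 reads in crushed nerve, against 10 and 2 in sham nerve. Against a floor of 3 reads in each crush library, it was at least 2.23-fold lower in crushed nerve in SRPBM. That of 49.4 kb in the nested set had 0 and 0 reads in crushed nerve, against 6 and 3 in sham nerve, at least 1.70-fold lower. That of 38.6 kb, chr3:54509941-54548558, had 0 and 0 reads in crushed nerve, against 7 and 2 in sham nerve, at least 1.68-fold lower. These bounds hold only where a listed 0 means few reads, and in sham replicate 2 the counts of all 3 were themselves at or below the floor.

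The shortest Stk39 circRNA, chr3:54509941-54519757, had 2 and 0 reads in crushed nerve, against 0 and 2 in sham nerve, so the groups overlapped, and it was the only one besides the leading circRNA to have any read in crushed nerve. The other 6 were each reported in a single sham library. Sham replicate 1 alone had those of 53.4 kb (2 reads), 103.1 kb (2 reads) and 110 kb (3 reads). Sham replicate 2 alone had those of 44.6 kb, 54.2 kb and 156 kb, with 3 reads each. Such counts lie next to the lowest that the files list. In all, 6 of the 11 (54.5%) were reported in 1 library, against 72.6% of all circRNAs. Both crush libraries lay below both sham libraries for 4 of the 11, which held for 8.13% of all 4942 circRNAs. Stk39 was chosen by the sum of these same reads, which favours such circRNAs, so this comparison is no separate evidence of a fall.

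**Figure D2:**
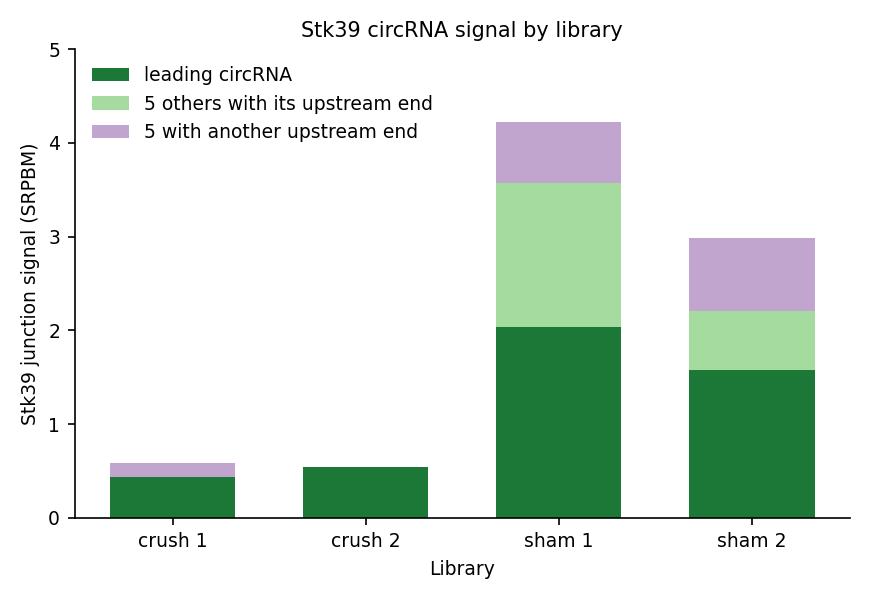
Stk39 junction signal in SRPBM (vertical axis) for each library (horizontal axis), stacked by the leading circRNA, the 5 others that use its upstream end and the 5 with another upstream end. The columns reach 0.580 and 0.538 in crushed nerve, against 4.23 and 2.99 in sham nerve, and the 5 others of the nested set appear in the sham libraries alone.

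The make-up of the Stk39 reads depends on their sum, by which Stk39 was chosen, since a circRNA with 1 read is not listed and minor circRNAs drop out where reads are few. Shares as listed are therefore given as a description. In crushed nerve the leading circRNA held 75.0% (95% exact interval 34.9% to 96.8%) and 100% (66.4% to 100%) of the Stk39 reads, 6 of 8 and 9 of 9. In sham nerve it held 48.3% (35.0% to 61.8%) and 52.6% (35.8% to 69.0%), 28 of 58 and 20 of 38. The sham libraries lay within a few points of each other and both lay below the crush libraries, but the interval of crush replicate 1 overlapped those of both sham libraries, and that of crush replicate 2 overlapped that of sham replicate 2. The mean share was 87.5% ± 17.7 in crushed nerve, against 50.5% ± 3.1 in sham nerve (SD, n = 2 each), a difference of 37.0 points. The intervals cover counting error only.

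To compare the make-up at equal depth, the Stk39 reads of each library were thinned to 8, the fewest in any library, and circRNAs left with under 2 reads were again not counted. The expected share of the leading circRNA was then 75.0% and 100% in crushed nerve, against 66.1% and 80.5% in sham nerve, so the groups overlapped. The difference was 14.2 points at equal reads, against 37.0 points as listed (two-sided exact permutation p = 0.667 at equal reads, where 0.333 is the smallest that 2 against 2 libraries can give). After Benjamini-Hochberg adjustment over the 4 shares compared at equal reads, every adjusted p was 1.

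The share of the upstream end at 54566332 overlapped between the groups. The 6 circRNAs that use it held 75.0% and 100% of Stk39 reads in crushed nerve, against 84.5% and 73.7% in sham nerve (difference 8.42 points). At equal reads the expected shares were 75.0% and 100% in crushed nerve, against 90.7% and 89.6% in sham nerve (exact permutation p = 1). The 4 that use the downstream end at 54509941 held 25.0% and 0% in crushed nerve, against 29.3% and 23.7% in sham nerve, again with overlap (difference -14.0 points). At equal reads they had 25.0% and 0% in crushed nerve, against 24.6% and 8.03% in sham nerve (exact permutation p = 1). In both groups, most back-splices of Stk39 thus used 1 upstream end, and in the crush libraries it was reported with the downstream end of the leading circRNA alone. The 5 longer members of the nested set had 0 reads in both crush libraries, against 21 and 8 in the sham ones.

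Reads of the 6 circRNAs that span over 50 kb, a cutoff chosen after seeing the data, numbered 0 of 8 and 0 of 9 in crushed nerve. The exact 95% intervals reach 36.9% and 33.6% there, and a floor of 3 reads for the set would be a share of 37.5% and 33.3%. Each listed 0 can hide a single read, so neither is a firm maximum. In sham nerve they made up 29.3% (95% exact interval 18.1% to 42.7%) and 21.1% (9.55% to 37.3%). Both crush libraries thus lay below both sham libraries as listed. Both kinds of limit in crushed nerve reach above both sham shares, so whether the share differed cannot be told at this depth. At equal reads the expected shares were 0% in both crush libraries, against 18.7% and 9.04% in the sham ones (exact permutation p = 0.333, the smallest possible).

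**Figure D3:**
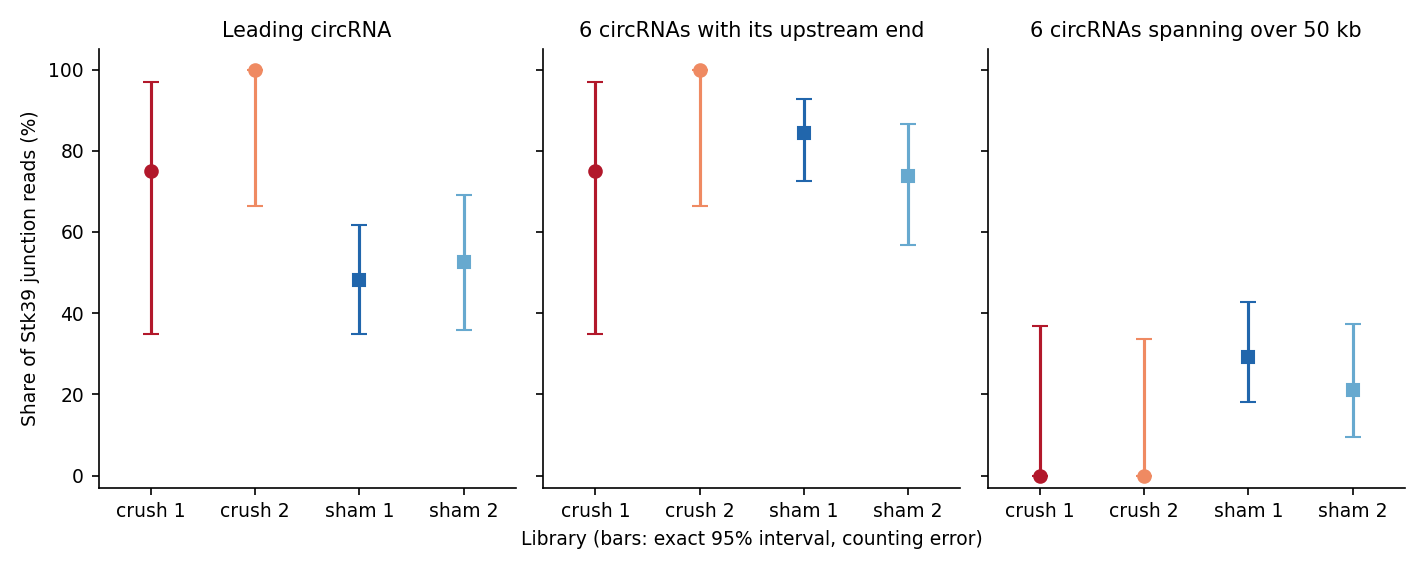
Share of the Stk39 junction reads (%, vertical axis) held in each library by the leading circRNA, by the 6 circRNAs with its upstream end and by the 6 that span over 50 kb. Points are shares and bars are exact 95% intervals; the leading circRNA held 75.0% and 100% in crushed nerve, against 48.3% and 52.6% in sham nerve, as listed and not at equal reads, while the shares of its upstream end overlapped.

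The number of Stk39 circRNAs reported was 2 and 1 in the crush libraries, against 7 and 8 in the sham ones. The number moves with the read sum that Stk39 was chosen by and is given with no test. When every library was thinned to the 8250 junction reads of the shallowest, the expected numbers were 2.00 and 1.00 in crushed nerve, against 6.65 and 7.65 in sham nerve. With the Stk39 reads of each library thinned to 8 as above, the expected numbers were 2.00 and 1.00 in crushed nerve, against 1.90 and 1.53 in sham nerve. At equal Stk39 reads the groups thus overlapped.

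With 11 circRNAs, Stk39 had as many as Arhgap10 and Pan3, and 9 hosts had more. Arhgap10, the gene of a GTPase-activating protein, had 7 and 20 reads in crushed nerve, against 27 and 50 in sham nerve. Pan3, which encodes a subunit of a poly(A) nuclease, had 79 and 79 in crushed nerve, against 50 and 66 in sham nerve. In SRPBM its groups overlapped, with a mean of 5.23 ± 0.71 in crushed nerve and 4.42 ± 1.09 in sham nerve (SD, n = 2 each). Beside Stk39, 29 hosts had at least 8 circRNAs. In 8 of these 29 every circRNA shared an end with another, and in 3 of them at least 6 circRNAs used 1 upstream end, so neither trait set Stk39 apart. The leading circRNA of Stk39 held 55.8% of its reads over all libraries, against a median of 32.1% in the 29, of which 7 had a higher share.

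In Ttc3 and Mlip, hosts with much signal in sham nerve and lower signal in crushed nerve, the leading share of the groups overlapped. In Ttc3, which encodes a ubiquitin ligase, the leading circRNA of 10 held 77.0% and 77.2% of reads in crushed nerve, against 77.8% and 74.2% in sham nerve. In Mlip, a gene of a lamin-interacting muscle protein, the leading one of 9 held 86.8% and 81.0% in crushed nerve, against 86.8% and 79.2% in sham nerve. Nfix and Lifr had 3 and 2 circRNAs, and nearly all of their reads lay on 1 of them (99.0% and 97.9%), so they leave little make-up to compare. Other hosts had separate groups, as Stk39 did. In Ubn2 the leading circRNA held 57.1% and 60% in crushed nerve, against 39.5% and 54.5% in sham nerve. In Pan3 it held 48.1% and 53.2% in crushed nerve, against 40% and 36.4% in sham nerve. Mtmr3 went the other way, with 54.7% and 64.6% in crushed nerve, against 71.4% and 67.7% in sham nerve. Whether the leading share of Stk39 differs between the groups more than that of these hosts was not tested, and these shares are as listed.

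Among 104 other host genes with at least 50 junction reads, the 5 whose levels over the 4 libraries were most like Stk39 included Lifr, Nek1, Tshz2 and Gucy1a2, the 4 described here. Likeness was the distance between profiles, a profile being the SRPBM of a host in each library as a share of its sum over the 4 libraries. Stk39 had 6.96% and 6.46% of its SRPBM in the crush libraries, against 50.7% and 35.9% in the sham ones. Lifr, the receptor gene for leukemia inhibitory factor, was the nearest (distance 0.028, against a median of 0.399 over the 104), with 4.93% and 8.13% in crushed nerve, against 50.3% and 36.7% in sham nerve.

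Nek1, the gene of a NIMA-related kinase, had 9.63% and 6.35% in crushed nerve, against 46.4% and 37.6% in sham nerve (distance 0.053). Tshz2, a zinc finger transcription factor gene, had 6.25% and 9.27% in crushed nerve, against 45.2% and 39.3% in sham nerve (distance 0.071). Gucy1a2, which encodes a subunit of soluble guanylate cyclase, had 12.6% and 9.24% in crushed nerve, against 49.3% and 28.9% in sham nerve (distance 0.095). These hosts were chosen for their likeness, so their profiles are a description. Their reads ranged from 4 to 14 per crush library, against 18 to 71 per sham library. These counts are small, and a profile over 4 libraries holds few values to tell hosts apart.

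**Figure D4:**
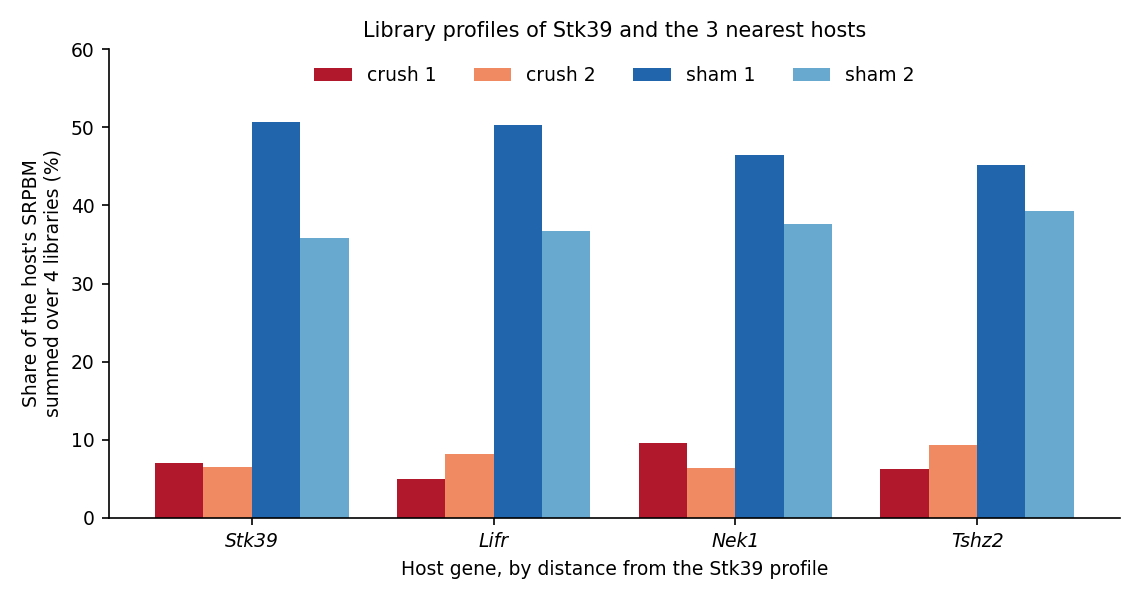
Share of the SRPBM of each host summed over the 4 libraries (%, vertical axis) that falls in each library, for Stk39 and the 3 hosts with the nearest profile, in order of distance. Stk39 has 6.96% and 6.46% in the crush libraries, against 50.7% and 35.9% in the sham ones, and the 3 hosts were chosen for being near these values.

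The only circRNAs of another host within 1 Mb of the Stk39 circRNAs were those of Cers6, a ceramide synthase gene on the plus strand. The nearest began 591 kb above the shared upstream end of Stk39. Its 6 circRNAs had reads in crush libraries alone. The most abundant, chr3:55157605-55224851, had 30 and 22 reads in crushed nerve, against 0 and 0 in sham nerve, and it passed the circRNA test (adjusted p = 0.0454, edgeR quasi-likelihood test), as did 11.9% of the 428 circRNAs tested. It passed in 7 of the 9 alternatives in which it was fitted, but not with the replicate block (adjusted p = 0.222) or with at least 2 reads required (adjusted p = 0.135), where no circRNA passed. That from 55157605 to 55165724 had 10 and 9 reads in crushed nerve, against 0 and 0 in sham nerve (adjusted p = 0.0570, edgeR), and passed in 5 of 8 alternatives. Both of these Cers6 circRNAs met the read requirement of the fit through the crush libraries alone. Their direction was thus set before the test, and these results are a description. No circRNA of another host or of intergenic sequence overlapped the Stk39 circRNAs.

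The pathway that SPAK serves gave few circRNA reads. Of 35 genes of a list of WNK kinases, partners, regulators and cotransporters (Stk39 itself left out), 13 had any junction read and 2 had enough to be tested. Neither of the 2 passed in either direction, nor did either have an unadjusted p under 0.05 in edgeR or pass in DESeq2; over all 434 host genes tested, 2.3% passed. The median log2 change of the 2 was 1.04, against 0.11 over all hosts. Wnk1, the kinase that acts on SPAK, had 16 and 14 reads in crushed nerve, against 3 and 12 in sham nerve (log2 change 1.18 ± 0.72, adjusted p = 0.347, edgeR). Sham replicate 1 lay far below the other 3 libraries, and crush replicate 2 lay below sham replicate 2 in SRPBM, so the groups overlapped. Cul3, a ubiquitin ligase scaffold that marks WNK kinases for degradation, had 9 and 7 reads in crushed nerve, against 7 and 3 in sham nerve (log2 change 0.89 ± 0.76, adjusted p = 0.506, edgeR).

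The next 4 of that list by level had 5 reads or more in at most 1 library and were not tested. Nedd4l, a ubiquitin ligase gene of ion channel turnover, had 14 and 2 reads in crushed nerve, against 0 and 2 in sham nerve. Ppp3ca, the gene of a calcineurin catalytic subunit, had 0 and 4 in crushed nerve, against 0 and 3 in sham nerve. Cab39l, which encodes a scaffold protein that activates SPAK, had 3 and 0 in crushed nerve, against 0 and 3 in sham nerve. Oxsr1, the close relative of Stk39, had 0 and 0 reads in crushed nerve, against 6 and 0 in sham nerve. In none of these 4 did the groups separate. Slc12a2, the cotransporter that SPAK turns on, had 0 and 4 reads in crushed nerve, against 0 and 0 in sham nerve.

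Of 29 other kinases and pseudokinases of the Ste20 group, 9 had junction reads and 1, Stk3, had enough to be tested. Stk3, a Hippo pathway kinase, had 12 and 18 reads in crushed nerve, against 25 and 30 in sham nerve (log2 change -0.67 ± 0.47, adjusted p = 0.406, edgeR), with both crush libraries below both sham libraries. It did not pass, its unadjusted p was 0.198 in edgeR, and it did not pass in DESeq2. Its relative Stk4 had 6 and 4 in crushed nerve, against 3 and 2 in sham nerve. Slk, a kinase of the cytoskeleton, had 0 and 0 reads in crushed nerve, against 4 and 3 in sham nerve. Map4k4, a kinase of stress signalling, had 3 and 0 in crushed nerve, against 3 and 0 in sham nerve. Map4k3, also a member of the MAP4K family, had 0 and 5 in crushed nerve, against 0 and 0 in sham nerve. In crushed nerve Stk39 had 8 and 9 reads, fewer than these 9 kinases together, which had 21 and 30. In sham nerve it had 58 and 38, above their sum of 41 in replicate 1 and just below their sum of 39 in replicate 2.

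The summed signal of leukocyte markers separated the groups, and that of muscle markers did so through Mlip, while that of adipocyte and endothelial markers overlapped. That of fibroblast and perineurial markers separated them narrowly in SRPBM but not in reads. Of 20 leukocyte markers, 11 had circRNA reads, and their sum was 4.48 to 5.87 SRPBM in crushed nerve, against 0 in both sham libraries. The 5 tested all met the read requirement through the crush libraries alone, so their direction was set beforehand. Of them, Csf3r, a neutrophil cytokine receptor gene named after its values were seen, passed in edgeR (adjusted p = 0.0490), where 10 of 434 hosts (2.3%) passed. No host did with at least 2 reads required. In DESeq2 4 of the 5 passed, where 32 of 434 hosts passed, 26 of them higher after crush. The list was chosen with earlier results known, so these calls are a description. Of the 3 tested in the muscle, fibroblast and perineurial, and endothelial lists, 1 each, none passed in edgeR, and Mlip alone had an unadjusted p under 0.05 and passed in DESeq2. Of 17 skeletal muscle markers, 5 had reads, with 5.02 to 5.51 SRPBM in crushed nerve, against 15.1 to 18.5 in sham nerve. Mlip gave nearly all of this, while Ttn and Ckm were at 0 in all libraries. The rest had few reads and differed in direction. Myh1 had 0 and 0 reads in crushed nerve, against 3 and 5 in sham nerve, and Neb had 0 and 0, against 0 and 2. Dmd had 0 and 3 in crushed nerve, against 0 and 2 in sham nerve, and Ryr1 had 0 and 2, against 0 and 0. Of 12 fibroblast and perineurial markers, 4 had reads (0.145 to 0.538 SRPBM in crushed nerve, 0.656 to 0.865 in sham nerve). Their summed reads were 2 and 9 in crushed nerve, against 9 and 11 in sham nerve, and the members differed in direction. Lama2 had 0 and 2 reads in crushed nerve, against 7 and 8 in sham nerve. Dcn had 0 and 7 in crushed nerve, against 0 and 0 in sham nerve. Of 10 adipocyte markers, 2 had reads (0 to 0.120 SRPBM in crushed nerve, 0 to 0.656 in sham nerve). Of 9 endothelial markers, 4 had reads (0.478 to 0.580 SRPBM in crushed nerve, 0.510 to 0.865 in sham nerve). Of 17 markers of myelinating Schwann cells, the main glia of this nerve, only Mbp and Pmp22 had reads, 3 each in sham replicate 2, and Sox10 and the others were at 0. Circular reads therefore do not check the tissue label through myelin genes. The part of these cells in the Stk39 difference was not tested.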

How the data were processed

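Each deposited table covers 1 library and, per the file headers, gives a raw count of back-splice reads and an SRPBM signal for each circRNA. The deposited genomic length, in bases, equalled end minus start for all 4942 circRNAs. Per the submitters' processing notes, CASAVA 1.8, BWA, edgeR and the build Rnor_6.0 were used, with no step named. The circRNA caller was not given in the sources used.

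The members, lists, named genes and tests were chosen with earlier results of these data known. Host symbols missing from the RefSeq gene table of GRCr8 were updated through its synonyms (100 hosts). Counts were summed per host, leaving out 3 circRNAs with 2 hosts. Host sums and circRNAs with at least 5 reads in at least 2 libraries were fitted with edgeR 4.0.16 (quasi-likelihood test, TMM, R 4.3.3) on all 4 libraries, with Benjamini-Hochberg adjustment over all features at 0.05. The fits were tested on simulated data. Alternatives were other scalings, filters, DESeq2 1.42.0, a replicate block and leaving out each library. Shares at equal Stk39 reads used two-sided exact permutation tests (scipy 1.17.1); planned tests of the leading share and the number as listed are left out, since both move with the sum Stk39 was chosen by. Expected numbers and shares after thinning are hypergeometric. Shares have Clopper-Pearson 95% intervals. Named genes were Stk39, its circRNAs, the 5 hosts nearest in profile, circRNAs within 1 Mb and hosts with as many circRNAs. Nfix, Ttc3, Mlip and Lifr, and the 6 members of a list highest in mean SRPBM, were named too. Slc12a2, Ttn, Ckm, Sox10, Csf3r, Ubn2, Lama2, Dcn, Stag1, Rere and Atrnl1 were named after their values were seen. So were Mtmr3, Myh1, Neb, Dmd and Ryr1. One of the hosts nearest in profile is not reported here.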

Additional observations from a re-analysis of the deposited data

How the results depend on the processing

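The Stk39 host sum was lower after crush in all 12 alternatives, and the leading circRNA in all 11. With library totals from the SRPBM constants, the log2 change was -2.67 for the host sum and -1.87 for the leading circRNA, and the median of all hosts moved to -0.30. Leaving out 1 library gave -2.57 to -2.12 for the host sum and -1.73 to -1.15 for the leading circRNA, 24.5 to 49.5 points for the difference in leading share, and -6.5 to -5.5 for the difference in number reported. With circRNAs that share its end summed, the leading share differed by 8.42 points, and at equal Stk39 reads by 14.2 points. The number reported differed by -1.5 with at least 5 reads required and by -0.22 at equal Stk39 reads. Both comparisons at equal Stk39 reads were added after seeing the data. The replicate block gave -2.24 and -1.45; the deviations of same-numbered libraries had a correlation of -0.055 over 434 hosts, and nothing in the labels pairs them.

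No member of the WNK and Ste20 lists was called in any alternative that kept all 4 libraries and in which the lists were counted. They were not counted with exonic circRNAs alone. The host genes called numbered 10, and 32 with DESeq2, 0 and 44 with at least 2 and 10 reads required, 39 with no filter, 24 with the block, 20 with exonic circRNAs alone, and 0 to 84 without 1 library; 8 were higher and 2 lower, or 8 and 6 with SRPBM totals. The circRNAs called numbered 51, and 30 with DESeq2, 0 and 23 with at least 2 and 10 reads required, 0 with the block, and 6 to 76 without 1 library; 32 were higher and 19 lower, or 31 and 28 with SRPBM totals. The cause was not tested. The shares of single Stk39 circRNAs in crushed nerve rest on 17 reads in all.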
